A study of Sus scrofa with 6 samples.

Results

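BCL2 family genes were examined in IPEC-J2 cells, a non-transformed epithelial line from the jejunum of a newborn piglet, after treatment with chenodeoxycholic acid (CDCA), a primary bile acid made by the liver. Bulk RNA-seq was available for 6 libraries: 3 from cells given PBS (CON group) and 3 from cells given CDCA (CDCA group), all collected after 24 h. The 10 genes were set by a list of names, drawn up with earlier results of these data known: MCL1, BCL2L1, BAX, BAK1, BID, BAD, BCL2L11, BBC3, PMAIP1 and BNIP5, out of 31908 gene IDs listed in the deposited table. Both groups were the same cell line at 1 time point, and CDCA was used at 1 concentration, so neither other cells nor a course over time or dose is covered. The study calls the libraries biological replicates, but the labels do not say whether those of a group came from separate cultures, so each p-value measures only the spread between these libraries, which may in part be technical.

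The BCL2 family decides whether the outer membrane of the mitochondrion stays closed. Survival members hold back the pore-forming members BAX and BAK1, and the BH3-only members, named for the single short motif they share with the rest of the family, bind the survival members or the pore formers and so favour opening of the membrane. Once it opens, cytochrome c reaches the cytosol and starts the caspases that carry out apoptosis, the orderly death by which the gut epithelium also sheds its cells.

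Levels were TPM, a measure of transcripts scaled for their length and for the library total, summed over the listed transcripts of a gene ID. Of the 10 genes, 5 were found under their own symbol in the deposited table, 3 (BAK1, BID and BBC3) through a table of gene IDs and symbols, and 2 (BAX and BCL2L11) by their description. The gene ID described as BAX (ENSSSCG00000003144) carried the name of DHDH, a gene that lies next to BAX on the pig genome, so how far its values are those of BAX is uncertain. The listed TPM summed to between 351770 and 366073 per library, where a library in full would reach 1000000, and no read counts were used. The number of reads behind each level is therefore not known, and a level covers only the listed transcripts. The epithelial markers EPCAM, KRT8, KRT18 and CLDN4 had means of at least 65.6 TPM in both groups, and CLDN4 (225 to 806 TPM), EPCAM (122 to 160 TPM) and KRT18 (65.6 to 75.1 TPM) were higher in CDCA (limma FDR 3.7e-06, 0.0015 and 0.013). Their part in the results was not tested. CDH1 stood between 0.31 and 0.58 TPM and CLDN7 between 0 and 0.37 TPM in the 6 libraries, and the enterocyte markers VIL1, CDX2 and FABP2 did not exceed 0.64 TPM, with a mean of 1.17 TPM for SI in CON. The fibroblast markers and the other immune and endothelial markers were under 1 TPM on average, except CD14 (0.997 TPM in CON and 1.48 TPM in CDCA) and PECAM1 (1.92 and 1.22 TPM). The mtDNA-encoded mRNAs held 13.8% to 15.0% of the listed TPM in the CON libraries and 2.90% to 3.45% in the CDCA libraries. Among the members and the list genes named below, calls that ended with library totals taken over the other genes alone are named beside the gene. The calls of the markers were not put to this check. These totals shifted log2 fold changes by a median of -0.14 over all genes, and that of KRT18 was 0.19.

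Differences were tested with limma on log2(TPM + 1) over the 8708 genes whose mean reached 1 TPM, and a gene passed at a Benjamini-Hochberg FDR under 0.05. For genes of low level this scale gives a smaller change than their TPM ratio. Of the 10 BCL2 family genes, 8 were tested, and each of these had a mean of at least 1 TPM in both groups. Compared with the CON group, 4 were higher in the CDCA group (PMAIP1, BBC3, BCL2L11 and BAX), 2 were lower (MCL1 and BID), and 2 did not pass (BCL2L1 and BAK1). Over all tested genes, 29.3% were higher and 23.9% lower by the same rule, so changes of this kind were common in these cells. With library totals that left out the mtDNA-encoded genes, this split over all tested genes turned from 2550 higher and 2085 lower to 1781 higher and 2793 lower. With a log2 fold change over 1 in size also required, 2 of the 8 were higher (PMAIP1 and BBC3) and 1 was lower (MCL1), where the shares over all tested genes were 3.51% and 3.9%. Every CDCA library lay above every CON library for 4 of the 8 genes and below for 2, against 33.7% and 27.8% of all tested genes. The median log2 fold change of the 8 genes was 0.36, and that of all tested genes was 0.05. In bulk RNA, a smaller number of cells that express a gene and less RNA per cell cannot be told apart.

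**Figure D1:**
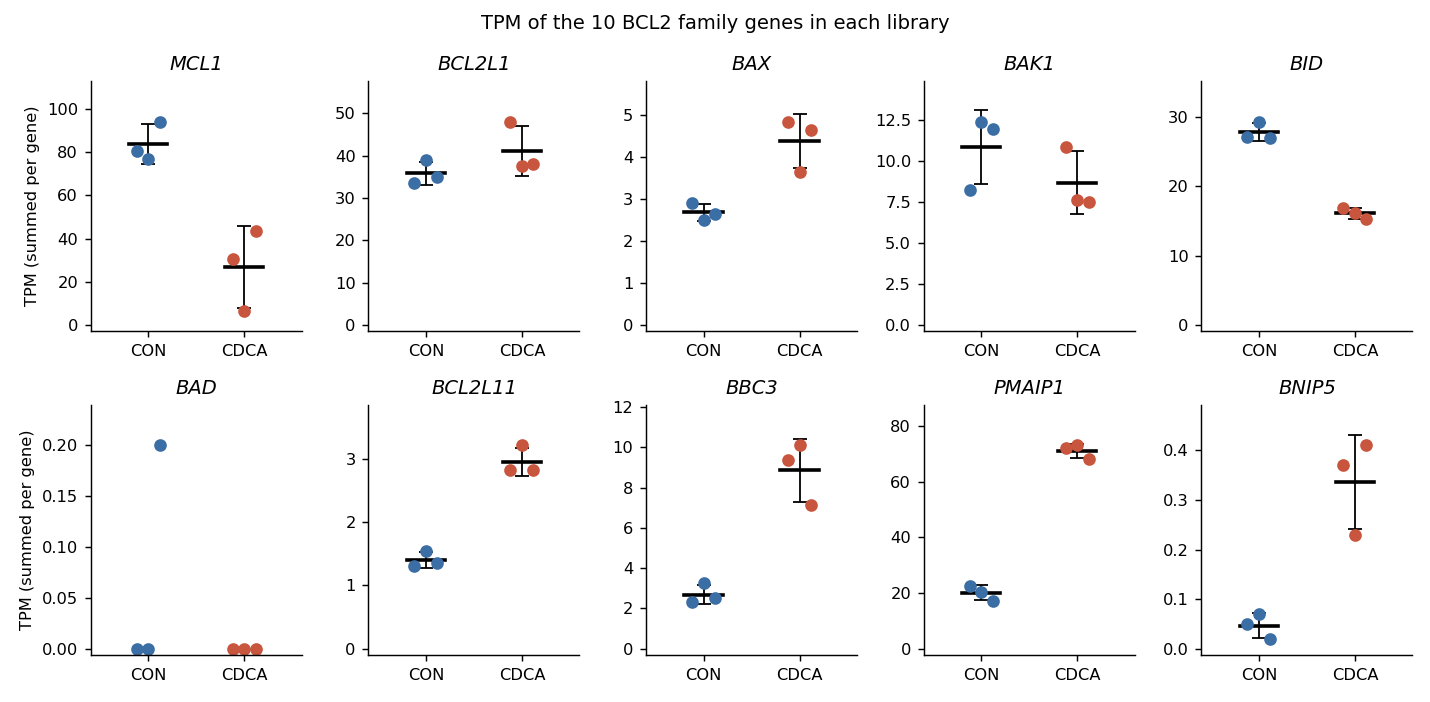
TPM summed per gene (vertical axis, linear, a separate scale for each gene) in the 3 CON and the 3 CDCA libraries; points are libraries, the line is the group mean and the bar is 1 SD, with points alone for BAD, which was listed at 0 in 5 of the 6 libraries. The CDCA points of PMAIP1, BBC3, BCL2L11, BAX and BNIP5 sit above all CON points, those of MCL1 and BID sit below, and those of BCL2L1 and BAK1 overlap with CON.

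Of the 2 survival genes among the 10, MCL1 fell in the CDCA group and BCL2L1 did not pass the test. MCL1 encodes a short-lived survival protein that binds BAK1, BCL2L11 and PMAIP1. Its level (ENSSSCG00000039314) was 80.65, 76.74 and 94.08 TPM in the CON libraries and 30.52, 6.59 and 43.67 TPM in the CDCA libraries. All 3 CDCA libraries lay below the lowest CON library, but they differed among themselves far more than the CON libraries did, with CDCA replicate 2 the lowest by a wide margin. The mean was 83.8 ± 9.10 TPM in CON and 26.9 ± 18.8 TPM in CDCA (SD, n = 3 each), a log2 fold change of -1.94 (SE 0.61, 95% interval -3.40 to -0.48, limma FDR 0.034). The call was lost in 4 of the 6 fits that left out a library, with log2 fold changes of -2.20 to -1.85: the limma FDR was 0.080, 0.078 and 0.094 without CON replicate 1, 2 and 3 and 0.052 without CDCA replicate 1. Without CDCA replicate 3 the log2 fold change was -2.45 and the test was passed (limma FDR 0.019). Without CDCA replicate 2 the log2 fold change shrank to -1.17, with a tighter spread and a limma FDR of 0.0036, and the ratio of mean TPM was 0.443 in place of 0.321.

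BCL2L1 encodes BCL-xL, the other survival protein among the 10 genes, which binds BAX, BCL2L11, BID and BAD. Its level (ENSSSCG00000035357) was 33.64, 38.88 and 35.07 TPM in CON and 48, 37.45 and 37.93 TPM in CDCA. The groups overlapped, and only CDCA replicate 1 stood above all CON libraries. The log2 fold change was 0.19 (SE 0.11, 95% interval -0.07 to 0.44, limma FDR 0.18), with an interval that includes 0. The test was passed when the highest listed transcript stood in for the gene (0.27, limma FDR 0.037), and the log2 fold change was 0.04 (limma FDR 0.81) with library totals that left out the mtDNA-encoded genes.

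Summed over MCL1 and BCL2L1, which is a description without a test and leaves out BCL2L2, a survival gene outside the 10, the levels were 114.29, 115.62 and 129.15 TPM in CON and 78.52, 44.04 and 81.6 TPM in CDCA. The groups did not overlap. MCL1 supplied 69.9% ± 3.28 (SD, n = 3) of this sum in CON and 35.8% ± 19.5 (SD, n = 3) in CDCA, and BCL2L1 was the larger part in CDCA replicates 1 and 2. Without CDCA replicate 2, the CDCA mean of the sum was 80.1 TPM and the share of MCL1 was 46.2%.

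Of the pore-forming genes, BAX rose and BAK1 did not pass the test. BAX, which in the cytosol is inactive and inserts into the outer membrane when triggered, had 2.89, 2.49 and 2.65 TPM in the CON libraries and 4.83, 3.63 and 4.63 TPM in the CDCA libraries. Each CDCA library lay above each CON library, and the levels stayed low in both groups. The mean rose from 2.68 ± 0.201 to 4.36 ± 0.643 TPM (SD, n = 3 each), a log2 fold change of 0.54 with an SE of 0.11 (limma FDR 0.0072), with the doubt about the gene ID given above. BAK1, the pore former that resides in the outer membrane, had (ENSSSCG00000001516) 8.25, 12.4 and 11.93 TPM in the CON libraries and 10.88, 7.64 and 7.51 TPM in the CDCA libraries. CON replicate 1 was the low library of its group and CDCA replicate 1 the high library of the other, so the groups overlapped. The log2 fold change of BAK1 was -0.29 (SE 0.19, 95% interval -0.74 to 0.16, limma FDR 0.23). The sum of BAX and BAK1 was 13.5 ± 2.08 TPM in CON and 13.0 ± 2.35 TPM in CDCA (SD, n = 3 each, a description), with overlapping groups.

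Of the 5 BH3-only genes, PMAIP1, BBC3 and BCL2L11 rose, BID fell, and BAD was not tested. PMAIP1 encodes NOXA, a BH3-only protein that binds MCL1 above all and hastens its breakdown. Its level (ENSSSCG00000026454) was 22.67, 20.42 and 17.34 TPM in CON and 72.04, 73.02 and 68.27 TPM in CDCA. The lowest CDCA library was far above the highest CON library, and the spread within the CDCA group was small. The mean rose from 20.1 ± 2.68 to 71.1 ± 2.51 TPM (SD, n = 3 each), a ratio of 3.53 and a log2 fold change of 1.78 with an SE of 0.09 (limma FDR 2.1e-05), the highest of the 8 tested BCL2 family genes. By size of change, PMAIP1 was at rank 134 of the 8708 tested genes.

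BBC3 encodes PUMA, a BH3-only protein that binds every survival member. The level of BBC3 (ENSSSCG00000003112) was 2.3, 3.24 and 2.54 TPM in CON and 9.36, 10.09 and 7.11 TPM in CDCA. The groups were well apart, although CDCA replicate 3 was lower than the other two. The log2 fold change was 1.41 with an SE of 0.15 (limma FDR 0.00035), and the ratio of mean TPM was 3.29. BCL2L11 encodes BIM, a BH3-only protein that FOXO factors and endoplasmic reticulum stress can induce. BCL2L11 (ENSSSCG00000022322) had 1.31, 1.54 and 1.36 TPM in the CON libraries and 2.82, 3.21 and 2.82 TPM in the CDCA libraries. Both groups were tight and did not overlap. The mean rose from 1.40 ± 0.121 to 2.95 ± 0.225 TPM (SD, n = 3 each), a ratio of 2.10, while the log2 fold change on log2(TPM + 1) was 0.72 (SE 0.10, limma FDR 0.0011).

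BID encodes the BH3-only protein that caspase 8 cuts, which links death receptors at the cell surface to the mitochondrion. BID (ENSSSCG00000000769) had 27.14, 29.31 and 26.98 TPM in the CON libraries and 16.84, 16.17 and 15.3 TPM in the CDCA libraries. All CDCA libraries were below all CON libraries, and both groups were tight. The log2 fold change was -0.75 with an SE of 0.06, the smallest of the 8 tested genes (limma FDR 8.7e-05), and the ratio of mean TPM was 0.579. BAD encodes a BH3-only protein that growth factor signals hold inactive by phosphorylation. It (ENSSSCG00000013033) was listed at 0 in 5 libraries and at 0.2 TPM in CON replicate 3, so nothing can be said of a difference. BCAP31, a gene used by most cells, was also listed at 0 in all 6 libraries, so a listed 0 is not read here as absence of the RNA.

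BNIP5, the last gene of the list (ENSSSCG00000001560), had 0.05, 0.07 and 0.02 TPM in the CON libraries and 0.37, 0.23 and 0.41 TPM in the CDCA libraries. All CDCA libraries were above all CON libraries, but every value was under 1 TPM and the gene was not tested. When genes of low level were kept in the fit, its log2 fold change was 0.35 and its limma FDR 0.0084.

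**Figure D2:**
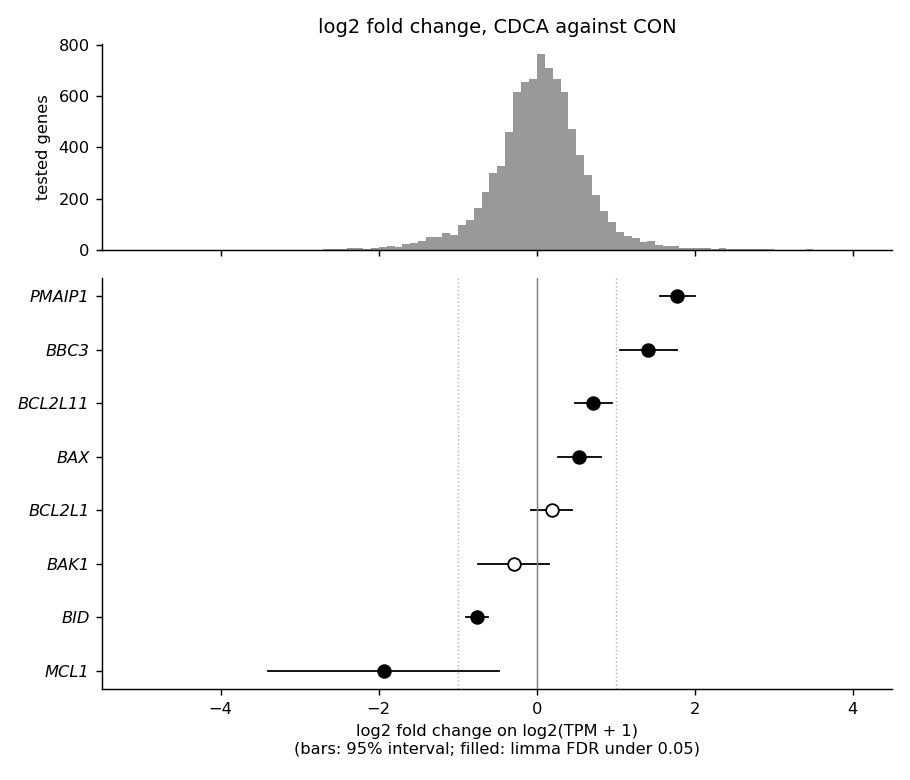
The upper panel counts the 8708 tested genes by log2 fold change (horizontal axis, CDCA against CON on log2(TPM + 1)), and the lower panel gives the 8 tested BCL2 family genes on the same axis, with 95% intervals as bars, filled points for a limma FDR under 0.05 and dotted lines at the fold limit of 1 in size. PMAIP1 at 1.78 and BBC3 at 1.41 lie to the right of most genes, and MCL1 at -1.94 lies to the left with the widest interval.

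The order of the levels differed between the groups. In CON, MCL1 was the highest of the 10 genes, followed by BCL2L1, BID, PMAIP1 and BAK1, and the ranges of neighbours in this part of the order did not overlap. BBC3 and BAX came next with overlapping ranges, then BCL2L11, and BAD and BNIP5 were both near 0. In CDCA, PMAIP1 was the highest, above BCL2L1 by more than the spread of either. The ranges of BCL2L1 and MCL1 overlapped, as did those of MCL1 and BID, since MCL1 spanned 6.59 to 43.67 TPM. BBC3 and BAK1 also overlapped, and BAX, BCL2L11, BNIP5 and BAD followed in that order.

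The 5 BH3-only genes together (a description without a test) held 53.42, 54.51 and 48.42 TPM in CON and 101.06, 102.49 and 93.5 TPM in CDCA, a ratio of means of 1.90. PMAIP1 was the main part of this: it supplied 38.6% ± 3.45 of the sum in CON and 71.8% ± 1.01 in CDCA (SD, n = 3 each).

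For members whose proteins bind each other, the ratio of the 2 levels was taken within each library. PMAIP1 to MCL1 was 0.281, 0.266 and 0.184 in CON and 2.36, 11.1 and 1.56 in CDCA. MCL1 was thus the higher of the pair in every CON library and PMAIP1 in every CDCA library. The log2 ratio differed by 3.84 between the groups, or 14.4-fold, and by 3.00 without CDCA replicate 2, in which MCL1 was lowest. In an exact two-sided permutation test p was 0.1, the smallest value that the 20 splits of 3 libraries against 3 allow.

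BAX to BCL2L1 was 0.0859, 0.0640 and 0.0756 in CON and 0.101, 0.0969 and 0.122 in CDCA. The groups did not overlap, though the highest CON and the lowest CDCA library were close. The log2 ratio differed by 0.51 (1.42-fold, exact permutation p = 0.1), again the smallest the design allows. BCL2L11 to BCL2L1 was 0.0389, 0.0396 and 0.0388 in CON and 0.0588, 0.0857 and 0.0743 in CDCA. The 3 CON libraries had nearly 1 value, and all CDCA libraries were higher. The log2 ratio differed by 0.88 (1.84-fold, exact permutation p = 0.1). BCL2 itself was not matched to a gene ID, so the ratio of BAX to BCL2 was not analysed here. Over the 3 pairs compared, the Benjamini-Hochberg adjusted p was 0.1 for each.

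**Figure D3:**
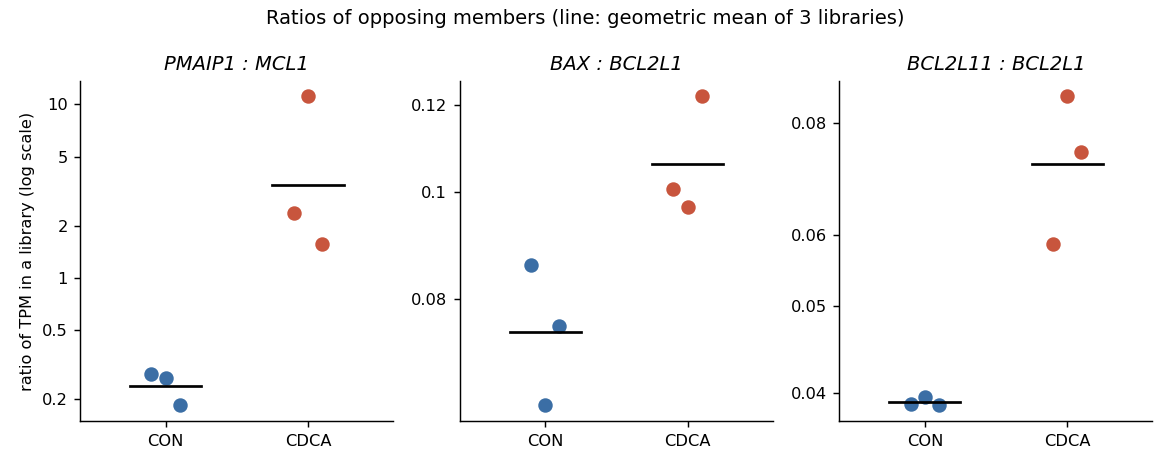
Ratio of the TPM of 2 BCL2 family genes within a library (vertical axes, log scale, a separate range for each pair), with a point per library and a line at the geometric mean of the 3 libraries of a group. All CDCA points lie above all CON points for each pair, by 14.4-fold for PMAIP1 to MCL1, 1.84-fold for BCL2L11 to BCL2L1 and 1.42-fold for BAX to BCL2L1.

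The deposited table lists 32 transcripts for the 10 genes, without transcript IDs, and the authors' estimation divided the reads of a gene among them, so the parts are less certain than the sum. For MCL1, the transcript with the highest level held 75.45, 76.74 and 93.78 TPM in CON and 18.41, 4.9 and 28.65 TPM in CDCA. The transcript listed next for MCL1 held 5.2, 0 and 0.3 TPM in CON and 12.11, 1.69 and 15.02 TPM in CDCA. The first transcript therefore made up 97.7% ± 3.63 of MCL1 in CON and 66.8% ± 7.09 in CDCA (SD, n = 3 each), without overlap of the groups, and its own log2 fold change was -2.46 (limma FDR 0.011). In MCL1 genes of other mammals, skipping of an exon yields a short form that promotes death, but which transcript of MCL1 each row stands for was not settled here.

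For BBC3, the leading transcript held 1.26, 2.12 and 1.11 TPM in CON and 3.98, 5.25 and 3.1 TPM in CDCA. The second transcript of BBC3 held 1.01, 1.04 and 0.98 TPM in CON and 5.11, 4.65 and 3.75 TPM in CDCA, and its share of the gene went from 38.2% ± 5.92 to 51.1% ± 4.47 (SD, n = 3 each). Both transcripts of BBC3 were above CON in all CDCA libraries. For BCL2L1, the leading transcript was at 24.42 to 27.39 TPM in CON and at 29.08 to 35.16 TPM in CDCA. The second transcript of BCL2L1 spanned 5.56 to 9.65 TPM in CON and 5.08 to 8.12 TPM in CDCA, and the share of the third went from 5.07% ± 0.737 to 8.17% ± 1.52 (SD, n = 3 each). The ranges of the leading transcript and the share of the third did not overlap between the groups, while the second transcript did. PMAIP1 had 1 listed transcript. The share of the leading transcript overlapped between the groups for BAK1, BID and BCL2L11, while for BAX it was 99.7% ± 0.599 in CON and 94.0% ± 2.42 in CDCA (SD, n = 3 each), without overlap.

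**Figure D4:**
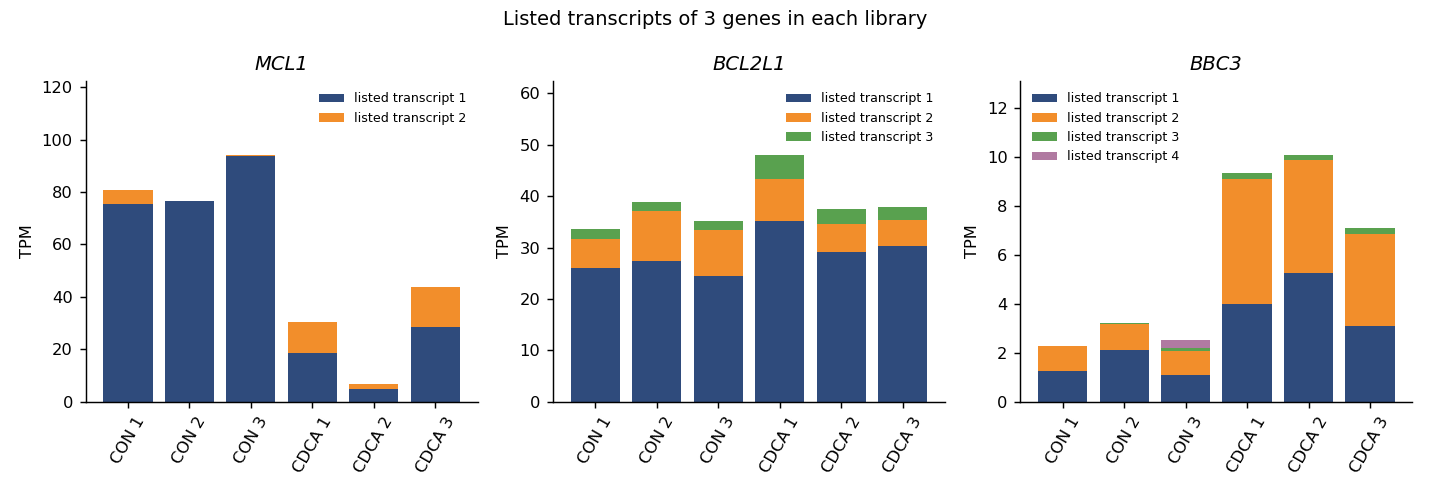
TPM of the listed transcripts of MCL1, BCL2L1 and BBC3 (vertical axes, linear, stacked to the gene sum) in each of the 6 libraries, numbered by mean level, transcripts at 0 in all libraries left out. In MCL1 the second transcript is 0 to 5.2 TPM in CON and 1.69 to 15.02 TPM in CDCA, while in BBC3 both main parts are larger in CDCA.

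For each of the 6 genes that passed the test, the tested genes with the most similar profile over the 6 libraries were sought among 7981 genes with a symbol, by the root mean square difference of centred log2(TPM + 1). Nearest to PMAIP1 were MAFF (0.0794), SARS1 (0.0856) and SRXN1 (0.0957). BBC3 had HERPUD1 (0.115), SLC6A8 (0.117) and VEGFA (0.119), and BCL2L11 had SELENOM (0.0267), R3HDM4 (0.0289) and EIF6 (0.0349). BAX was nearest to PLEKHA3 (0.0503), GAS2 (0.0525) and HACL1 (0.0554), and BID to HK1 (0.0304), MFSD12 (0.0395) and AAAS (0.0401). MCL1 had its nearest profiles at greater distances, those of CHST10 (0.351), MYBL2 (0.520) and FEN1 (0.537).

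Of 12 other BCL2 proteins, 9 had a gene ID and 6 were tested, and 1 was higher, 1 lower and 4 did not pass, with a median log2 fold change of 0.18 (29.3% higher and 23.9% lower over all tested genes). BMF, a BH3-only protein tied to the cytoskeleton, had 0.7, 0.47 and 0.36 TPM in the CON libraries and 2.09, 2.27 and 2.06 TPM in the CDCA libraries, a log2 fold change of 1.06 (limma FDR 0.00061). BMF entered the test only through its CDCA level, so it had to differ between the groups. BOK, a pore former related to BAX, fell from 4.31 ± 0.297 to 2.41 ± 0.155 TPM (SD, n = 3 each), a log2 fold change of -0.64 (limma FDR 0.0011). BCL2L2, a survival protein, was at 26.7 ± 1.79 TPM in CON and 30.0 ± 1.03 TPM in CDCA (SD, n = 3 each), with a limma FDR of 0.054 that came to 0.027 without CON replicate 3.

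Of the 5 BNIP genes, 4 were tested, and 2 were higher, 1 was lower and 1 did not pass, with a median of 0.27, beside the 29.3% and 23.9% of all tested genes. BNIP3, a hypoxia-induced protein of the outer membrane that marks mitochondria for removal, fell from 9.27 ± 0.159 to 2.93 ± 0.312 TPM (SD, n = 3 each), a log2 fold change of -1.39 (limma FDR 3.3e-05). BNIP1, a protein of membrane fusion at the endoplasmic reticulum, rose by a log2 fold change of 0.35 (limma FDR 0.0097), which came to 0.21 and lost the call with totals that left out the mtDNA-encoded genes (limma FDR 0.079). BNIP3L, the close relative of BNIP3, had a mean of 0.993 TPM in CON, under the limit, so it entered the test only through CDCA. Its log2 fold change was 0.33, and its limma FDR of 0.0498 went over 0.05 with any 1 of the 6 libraries left out (0.052 to 0.11) and with totals that left out the mtDNA-encoded genes (0.12).

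Among 21 partners and turnover factors of BCL2 proteins, 17 were tested, and 6 were higher, 2 lower and 9 did not pass, with a median of 0.08. The share of higher genes was near the 29.3% of all tested genes, and 23.9% of all were lower. TMBIM6, an endoplasmic reticulum protein also known as BAX inhibitor 1, went from 1.11, 1.84 and 1.24 TPM in CON to 16.01, 26.85 and 23.69 TPM in CDCA, a log2 fold change of 3.26 (limma FDR 4.1e-05). The CON levels of TMBIM6 were close to the limit of 1 TPM, and its level covers only the listed transcripts. Whether the gene as a whole changed by as much was not tested. BAG3, a co-chaperone that binds BCL2, rose from 23.9 ± 1.12 to 55.1 ± 6.84 TPM (SD, n = 3 each), a log2 fold change of 1.17. DYNLL1, a dynein light chain that holds BCL2L11 at microtubules, fell from 174 ± 0.514 to 89.9 ± 1.98 TPM (SD, n = 3 each), a log2 fold change of -0.94. DYNLL2, a dynein light chain that binds BMF, rose by a log2 fold change of 0.57 (limma FDR 0.018). Its limma FDR was 0.061 without CDCA replicate 2. Of the factors acting on MCL1, TPT1, a protein that stabilises MCL1, rose by 0.79 (limma FDR 1.2e-05) and MARCHF5, a ubiquitin ligase of the outer membrane, rose by 0.50 (limma FDR 0.0089) on the log2 scale. The ubiquitin ligases HUWE1 (-0.25, limma FDR 0.16) and FBXW7 (-0.12, limma FDR 0.58) and the deubiquitinase USP9X (0.86, limma FDR 0.13), which also act on MCL1, did not pass. USP9X had 0.86, 1.13 and 1.14 TPM in CON and 4.16, 4.47 and 0.78 TPM in CDCA. CDCA replicate 3 was thus below all CON libraries, and without it the limma FDR of USP9X was 0.00068.

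Of 15 transcription factors known to induce BCL2 family genes, found under 16 gene IDs, 13 IDs were tested, and 9 were higher, 1 lower and 3 did not pass, where 29.3% of all tested genes were higher and 23.9% lower. The median log2 fold change was 0.43. The 3 symbols with the largest changes were DDIT3, ATF3 and CEBPB, all factors of stress responses. DDIT3, or CHOP, which can induce BCL2L11 and BBC3 under endoplasmic reticulum stress, had 13.54, 14.17 and 12.39 TPM in the CON libraries and 201.67, 230.49 and 191.39 TPM in the CDCA libraries, a log2 fold change of 3.86 (limma FDR 1.8e-06). A second gene ID with the name DDIT3 went from 0.223 to 2.09 TPM, entered the test only through CDCA, and leaves it uncertain how reads were shared between the 2 IDs. ATF3 rose from 41.0 ± 1.18 to 145 ± 11.1 TPM and CEBPB from 41.8 ± 7.21 to 114 ± 9.44 TPM (SD, n = 3 each), log2 fold changes of 1.80 and 1.43. ATF4, which induces PMAIP1 together with ATF3, was listed at no more than 0.04 TPM in any library and was not tested.

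The FOXO factors, known inducers of BCL2L11 and BBC3, also rose: FOXO4 by 0.62 (limma FDR 0.0029), FOXO3 by 0.43 (limma FDR 0.0013) and FOXO1 by 0.41 (limma FDR 0.032) on the log2 scale. TP73, which can induce BBC3 and BAX, fell by 0.48 (limma FDR 0.0013) on the log2 scale. STAT3, an inducer of MCL1, had a log2 fold change of 0.55 (limma FDR 0.023). The calls of FOXO1 and STAT3 were each lost in 4 of the 6 fits that left out a library: FOXO1 without any 1 CON replicate or CDCA replicate 1, and STAT3 without CON replicate 1 or 3 or CDCA replicate 1 or 2. With totals that left out the mtDNA-encoded genes, that of FOXO1 was lost as well (limma FDR 0.11).

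Downstream of the outer membrane, 12 of 15 genes were tested, and 3 were higher, 6 lower and 3 did not pass, with a median of -0.31 (29.3% and 23.9% for all tested genes). The proteins released from mitochondria were among those lower: CYCS, which encodes cytochrome c, fell by 0.42, DIABLO, an antagonist of the inhibitors of apoptosis, by 0.46, AIFM1 by 0.39 and ENDOG, a nuclease, by 1.15 on the log2 scale. HTRA2, a protease of the same compartment, was at 17.8 ± 1.37 TPM in CON and 17.9 ± 0.381 TPM in CDCA (SD, n = 3 each) and did not pass. BIRC5, or survivin, an inhibitor of apoptosis that also serves mitosis, fell from 44.7 ± 0.436 to 14.7 ± 1.07 TPM (SD, n = 3 each), a log2 fold change of -1.55. BIRC2 rose from 16.6 ± 1.45 to 45.6 ± 3.64 TPM (SD, n = 3 each), a log2 fold change of 1.41, although the symbol table gives this gene ID as BIRC3, a related inhibitor of apoptosis. CASP6, an executioner caspase, rose by 0.98 on the log2 scale. CASP8, which cuts BID, did not pass (0.06, limma FDR 0.72), and CASP9, which cytochrome c activates, had a log2 fold change of 0.28 (limma FDR 0.030) that was lost without any 1 CON replicate or CDCA replicate 1 or 3 and with totals that left out the mtDNA-encoded genes (limma FDR 0.20).

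**Figure D5:**
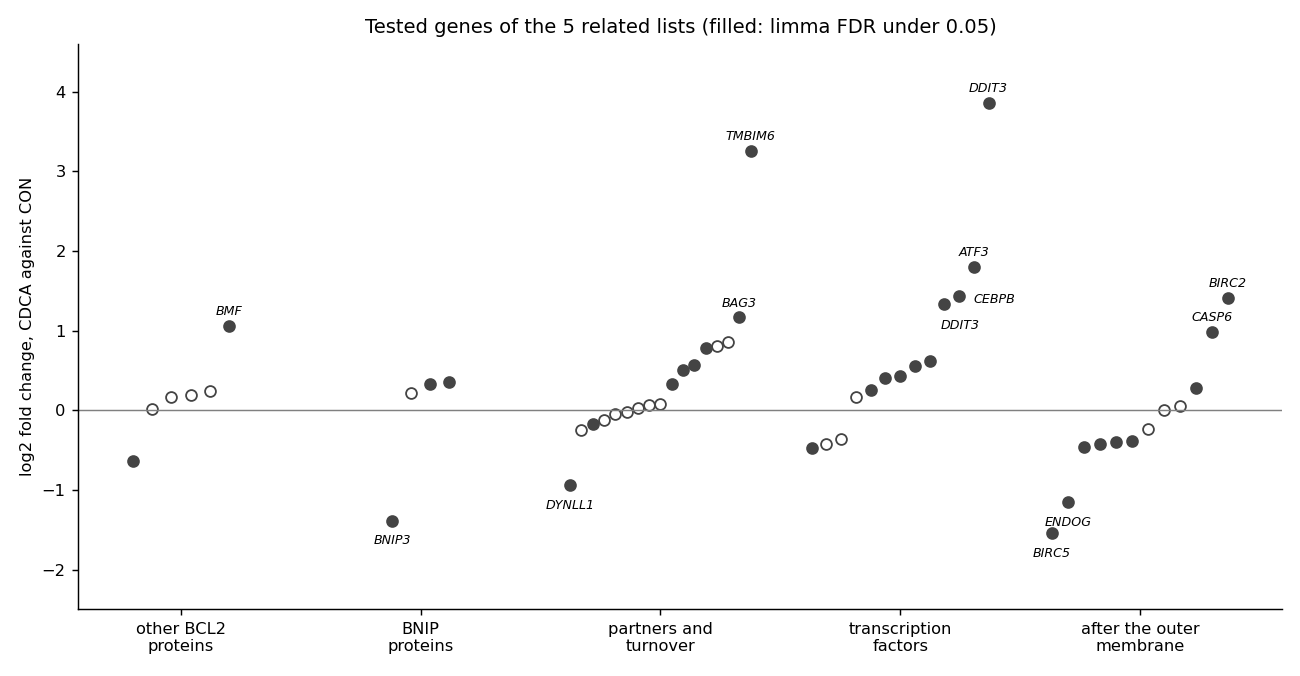
Log2 fold change of CDCA against CON (vertical axis, on log2(TPM + 1)) for the tested genes of 5 lists around the BCL2 family (horizontal axis, sorted within each list); filled points have a limma FDR under 0.05, and those over 0.9 in size are named. The transcription factors carry the most filled points above 0 (9 of 13), and the genes downstream of the outer membrane the most below 0 (6 of 12).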

How the data were processed

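Total RNA from 3 CON and 3 CDCA samples of IPEC-J2 cells was sequenced after TruSeq library preparation. The authors estimated abundance with RSEM, and the deposited table holds TPM only, for 63041 transcripts of 31908 pig gene IDs. The submitters' processing notes name Bowtie 0.12.2 and the mouse build mm10 with no role, while the gene IDs are those of the pig, so the build is uncertain and no coordinates or sequences are given. Groups came from the sample labels.

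TPM were summed per gene ID. Symbols were matched in the deposited table, then in a table of gene IDs and symbols, then by description; the deposited symbols, with the description for BAX, would have given 6 of the 10 genes. Genes whose mean reached 1 TPM were tested with limma 3.58.1 (trend) in R 4.3.3 on log2(TPM + 1), a scale computed here from the deposited TPM, with Benjamini-Hochberg adjustment over 8708 genes and no block. The authors used edgeR, which needs counts. The steps were tested on simulated data. Genes named in the text are the 10 members, the 3 largest changes of each list, list genes known to bind or induce a member that passed, and the 3 nearest profiles of each such member. HTRA2, BCL2L2, CASP8, CASP9, CYCS, DIABLO, AIFM1, CASP6, BCAP31 and the markers were named beyond this rule after their values were seen. TP73, an inducer of BBC3 and BAX, falls under the rule but was also added after its values were seen. The members, lists and tests were chosen with earlier results of these data known. Alternatives were another pseudocount, no filter, 3 other scalings, the highest listed transcript, a replicate block, no trend and each library left out. Results for some list genes and for 1 list are not reported here.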

Additional observations from a re-analysis of the deposited data

How the results depend on the processing

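None of the 8 tested members changed direction under the 14 alternatives. PMAIP1, BBC3, BCL2L11, BAX and BID passed the test under each of them, with log2 fold changes of 1.63 to 1.86, 1.03 to 1.68, 0.63 to 1.02, 0.43 to 0.68 and -0.90 to -0.72. The number of lower members was 2, and 1 with no filter on low values, where the limma FDR of MCL1 was 0.088; with each library left out it was 1 to 2. The number of lower members over the fold limit was 1, and 0 with no filter, and with each library left out 0 to 1. Other BCL2 proteins that were higher numbered 1, 2 when the listed TPM were rescaled to 1000000 or the highest listed transcript was used, and 1 to 2 with each library left out. Higher BNIP genes numbered 2, 1 with a pseudocount of 0.1 TPM, no filter, median ratio scaling, the highest listed transcript or the replicate block, 1 with each library left out, and 0 with totals without the mtDNA-encoded genes. Lower partners and turnover factors went from 2 to 5 with the latter totals. Lower transcription factors went from 1 to 3 with those totals and to 2 with median ratio scaling or the replicate block, and were 1 to 2 with each library left out. Totals without the mtDNA-encoded genes shifted log2 fold changes by a median of -0.14 over all genes. With them the calls over all genes went from 2550 higher and 2085 lower to 1781 and 2793, or from 55.0% to 38.9% higher. With the replicate block, 2316 genes were higher and 1902 lower; same-numbered CON and CDCA libraries did not deviate together (r of -0.035, -0.092 and -0.051 across genes), so the numbers are not treated as pairs. The cause of these moves was not tested. A planned search of member promoters for motifs was not run, and with TPM alone the depth behind genes listed at or near 0, such as BAD and BNIP5, cannot be given.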
